A study of Mus musculus with 31 samples.

Results

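Melanocytes and pigment production are represented here by 10 genes, Tyr, Tyrp1, Dct, Pmel, Mlana, Oca2, Slc45a2, Mitf, Kit and Sox10, in skin of C3H/HeJ mice with established AA, read here as alopecia areata. A probe set was taken as a member where the probe table gave its single symbol as 1 of them. This found 19 of 45101 probe sets, and the probe set of highest mean stood for each gene, so that the group is 10 of 18193 genes measured. All values are log2 levels by RMA, a method that puts the arrays on a common scale. The level of 1 gene is not set against that of another gene.

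The skin was treated with jak1i or jak3i, which the series title calls topical JAK inhibitors, or with PBS as the control arm. In the jak1i and jak3i arms 3 arrays each were taken at 0, 6 and 12 weeks and 2 arrays each at 24 weeks, and in the PBS arm 3 arrays each at 0, 6 and 12 weeks, which makes 31 arrays in 11 groups. The 31 samples hold no PBS group of 24 weeks. No names beyond these codes, and no dose, age or sex, are given in the sources used here. Strain, tissue and disease are shared by all groups. The replicates are stated to be biological, but not whether a mouse was sampled more than once. The tissue label was checked on 7 epidermal keratinocyte genes, whose mean lay between 12.51 and 13.51 on every array. In the 3 PBS arrays at 12 weeks the mean of 10 skeletal muscle genes was 5.56, 8.84 and 7.34, against 10.96 to 13.27 on the other arrays. The comparisons of inhibitor with PBS at 12 weeks and the relations with hair keratin are therefore given also with PBS at 6 weeks or without these 3 arrays.

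Pigment of mouse hair is made by melanocytes of the hair bulb, which deliver melanosomes to the growing hair and are active in the growth phase of the hair cycle. Tyrosinase (Tyr) carries out the first step of melanin synthesis, Tyrp1 and Dct act after it, Pmel builds the fibrils on which melanin settles, and Mlana helps to mature these fibrils. Oca2 and Slc45a2 are melanosome transport proteins. The transcription factors Mitf and Sox10 switch on these genes, and Kit is the receptor for stem cell factor that melanocytes need. Kit is also carried by mast cells, and Sox10 by Schwann cells of skin nerves. In alopecia areata the growing hair follicle is attacked by lymphocytes. The coat of C3H/HeJ mice is agouti, a pigmented coat.

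The 7 genes of melanin synthesis and the melanosome (Tyr, Tyrp1, Dct, Pmel, Mlana, Oca2 and Slc45a2, called the pigment genes below) varied more between arrays of the same group than between groups. Tyr ranged from 4.08 to 9.31 over the 31 arrays, and its standard deviation within groups was 1.67, larger than that of 99.6% of all genes. The within-group standard deviation was 1.62 for Mlana, 1.21 for Pmel, 1.01 for Tyrp1, 0.94 for Dct, 0.76 for Slc45a2 and 0.71 for Oca2, against a median of 0.18 over all genes. The regulators stayed within narrower limits, with 0.52 for Kit, 0.26 for Mitf and 0.23 for Sox10. Differences between the 11 groups made up 25.0% (Mlana) to 35.8% (Tyrp1) of the variance of the pigment genes, 33.4% for Mitf, 50.9% for Kit and 55.3% for Sox10, against 47.9% for the median gene. Such a share is well above 0 even without true group differences, since 11 means are fitted to 31 arrays. The F value was 0.75 (Mlana) to 1.25 (Tyrp1) for the pigment genes, against 1.82 for the median gene. An F test over the 11 groups in limma, with Benjamini-Hochberg adjustment over all genes, called 0 of the 10 genes at an adjusted p under 0.05, against 22.8% of all genes. The adjusted p was 0.0909 for Sox10, 0.129 for Kit and 0.45 to 0.749 for the other 8, and unadjusted p was under 0.05 for Sox10 (0.0282) and Kit (0.0483), as for 37.8% of all genes.

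Tyr showed the pattern most plainly. In jak1i skin it had 5.68, 5.04 and 8.94 at 0 weeks, 4.14, 8.49 and 4.62 at 6 weeks, 4.42, 5.62 and 7.62 at 12 weeks, and 7.08 and 4.10 at 24 weeks. In jak3i skin it had 9.31, 5.23 and 7.72 at 0 weeks, 8.78, 4.83 and 4.41 at 6 weeks, 5.17, 4.39 and 5.17 at 12 weeks, and 4.85 and 4.08 at 24 weeks. In PBS skin it had 4.83, 4.75 and 5.04 at 0 weeks, 5.63, 6.09 and 8.22 at 6 weeks, and 5.36, 6.93 and 6.84 at 12 weeks. A single high array stood beside low ones in several groups, while the groups of jak3i at 12 and 24 weeks and of PBS at 0 weeks held low arrays alone. In order of the group means Tyr lay at 4.46 ± 0.54 (SD, n = 2) in jak3i at 24 weeks, then 4.88 ± 0.15 in PBS at 0 weeks and 4.91 ± 0.45 in jak3i at 12 weeks (SD, n = 3 each). It went on with 5.59 ± 2.11 in jak1i at 24 weeks (n = 2), 5.75 ± 2.39 in jak1i at 6 weeks, 5.89 ± 1.61 in jak1i at 12 weeks and 6.01 ± 2.41 in jak3i at 6 weeks. The highest means were 6.38 ± 0.88 in PBS at 12 weeks, 6.55 ± 2.09 in jak1i at 0 weeks, 6.65 ± 1.38 in PBS at 6 weeks and 7.42 ± 2.06 in jak3i at 0 weeks. Neighbours in this order overlapped in all 10 pairs.

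The other pigment genes shared part of this order. The highest group mean was that of jak3i at 0 weeks for all 7 of them, with 9.41 ± 1.38 for Tyrp1, 9.72 ± 1.41 for Dct, 9.26 ± 1.30 for Pmel, 8.68 ± 2.03 for Mlana, 6.32 ± 1.03 for Oca2 and 6.93 ± 1.27 for Slc45a2 (SD, n = 3). The lowest was that of jak3i at 24 weeks for Tyrp1 (7.11 ± 0.07), Pmel (6.71 ± 0.31), Mlana (6.07 ± 0.62) and Slc45a2 (5.84 ± 0.19; SD, n = 2). It was PBS at 0 weeks for Dct (7.95 ± 0.51) and jak3i at 12 weeks for Oca2 (4.86 ± 0.06; SD, n = 3). Neighbouring groups overlapped in all 10 pairs for 5 of these 6 genes and in all but 1 pair for Tyrp1. Between these ends the order differed. In jak1i skin the means at 0, 6 and 12 weeks were 8.81, 9.28 and 9.38 for Dct. They were 8.25, 8.64 and 8.61 for Tyrp1, whereas Tyr was lower at 6 and 12 weeks than at 0 weeks. The regulators had another order. Kit was highest in jak3i at 6 weeks (8.86 ± 0.19) and lowest in PBS at 0 weeks (7.39 ± 0.18). Sox10 was highest in jak1i at 6 weeks (7.18 ± 0.32) and lowest in PBS at 0 weeks (6.59 ± 0.05). Mitf was highest in jak3i at 6 weeks (9.81 ± 0.35) and lowest in PBS at 6 weeks (9.37 ± 0.30; SD, n = 3 each). Neighbours overlapped in all 10 pairs for each of these 3.

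**Figure D1:**
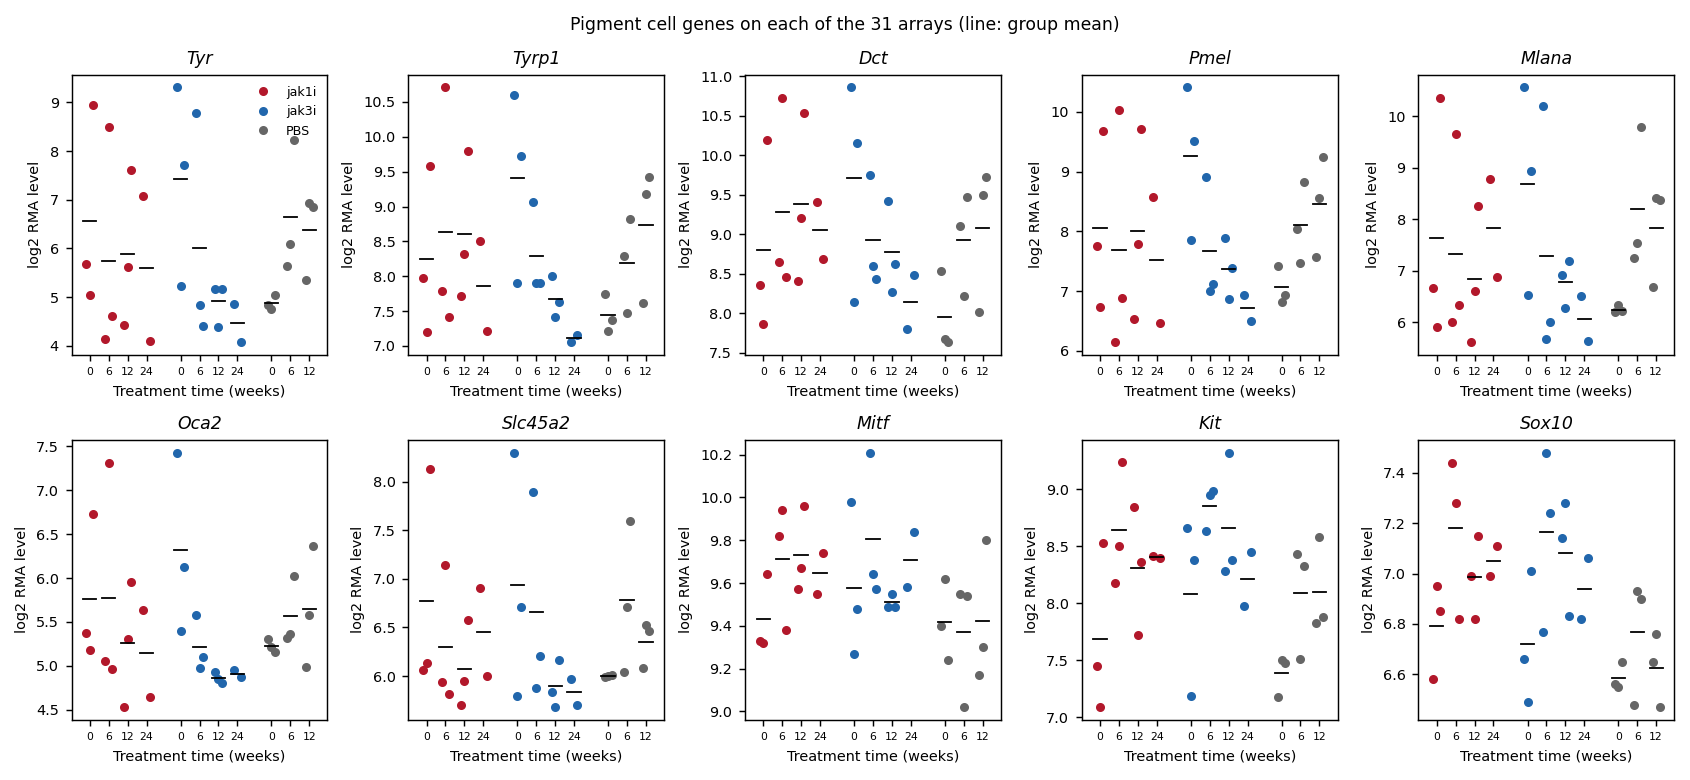
Log2 level of each of the 10 genes (vertical axes) on each array, by arm and treatment time in weeks (horizontal axis); each point is an array and the line is the group mean. For the 7 pigment genes single arrays stand high above the others of their group, as jak1i at 6 weeks replicate 2 does with Tyr at 8.49, while Mitf and Sox10 span ranges of only 1.19 and 1.01.

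The same arrays were high for all pigment genes. Jak3i at 0 weeks replicate 1, jak1i at 0 weeks replicate 3, jak1i at 6 weeks replicate 2 and jak3i at 0 weeks replicate 3 were each among the 8 highest arrays for all 7 genes. Jak3i at 6 weeks replicate 1 was so for 6 genes, and PBS at 6 weeks replicate 3 and jak1i at 12 weeks replicate 3 for 5. As a description over the 31 arrays, Pearson r between pairs of the 7 genes ran from 0.72 to 0.97 in 21 pairs, and from 0.79 to 0.99 for the deviations from the group means. Mitf correlated with the 7 at 0.36 to 0.60, Kit at 0.03 to 0.37 and Sox10 at -0.18 to 0.13. These points share the array and its normalisation.

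The promoters of Tyr, Tyrp1 and Dct are shown because the 3 genes vary together and Mitf is known to bind a short motif in their promoters. The RefSeq promoter table (GRCm38.p6) covers 6 of the 10 genes in 9 windows, namely Tyr, Tyrp1, Dct, Oca2, Kit (2 windows) and Mitf (3 windows). Pmel, Mlana, Slc45a2 and Sox10 were not matched. The 250 bases before the start are printed 5′ to 3′ on the strand of the gene, in lower case, with each match to the M-box core TCATGTG or its reverse complement in capitals. The Tyr window is chr7:87493513-87493762 (minus strand), that of Tyrp1 chr4:80833963-80834212 (plus strand) and that of Dct chr14:118052247-118052496 (minus strand).
Tyr: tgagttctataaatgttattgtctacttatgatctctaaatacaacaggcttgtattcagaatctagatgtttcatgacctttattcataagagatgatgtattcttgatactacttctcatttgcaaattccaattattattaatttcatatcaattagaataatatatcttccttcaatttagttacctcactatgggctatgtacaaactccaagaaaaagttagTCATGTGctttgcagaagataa
Tyrp1: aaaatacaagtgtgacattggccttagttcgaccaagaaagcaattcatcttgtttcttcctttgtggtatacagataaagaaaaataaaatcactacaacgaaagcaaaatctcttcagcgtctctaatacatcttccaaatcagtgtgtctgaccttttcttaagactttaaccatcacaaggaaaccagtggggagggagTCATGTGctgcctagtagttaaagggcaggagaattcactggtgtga
Dct: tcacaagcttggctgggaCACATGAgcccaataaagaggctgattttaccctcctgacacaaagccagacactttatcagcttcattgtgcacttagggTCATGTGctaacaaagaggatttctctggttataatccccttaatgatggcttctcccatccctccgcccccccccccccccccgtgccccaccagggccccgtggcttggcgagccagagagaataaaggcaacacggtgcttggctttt

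The motif begins 22 bases before the start of Tyr, 47 before that of Tyrp1, and 151 and 232 before that of Dct, where the second match is on the opposite strand. These starts are those of the promoter windows. The RefSeq gene record of Tyrp1 begins at chr4:80834123, inside the printed bases and before the motif, so there the motif lies within the record. The longest run shared by the 3 windows was GTCATGTGCT, 10 bases that contain the motif, and it was found in 61 of 32851 windows of 300 bases (0.186%), searched on both strands. TCATGTG was found in 3 of the 6 genes with a window, Tyr, Tyrp1 and Dct, against 4.31% of all genes with a window and 3.77% of all windows. The shorter core CATGTG, which lies inside it, was also in the window of Oca2, which makes 4 of the 6 genes, against 15.9% of all genes and 14.2% of all windows. CACGTG was in none of the 6 genes, against 8.09% of all genes and 7.15% of all windows. These matches describe the letters of the windows, and binding was not measured. The motif was searched because it was known in the promoters of Tyr, Tyrp1 and Dct, and the shared run was taken from the same windows. The shares are therefore no test of enrichment.

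None of the 10 genes passed the test between either inhibitor and PBS at 6 or 12 weeks. Against PBS at 6 weeks jak1i had 0 of the 10 genes called in limma, where 1.36% of all genes were called, and jak3i had 0, where 1.94% were. Against PBS at 12 weeks jak1i had 0, where 13.4% of all genes were called, and jak3i had 0, where 17.3% were. At an unadjusted p under 0.05 the counts of the 10 were 1 and 0 for jak1i at 6 and 12 weeks, against 17.4% and 29.9% of all genes, and 2 and 1 for jak3i, against 16.9% and 33.5%. With PBS at 6 weeks as the control of the 12-week arrays 0 of the 10 were called for either inhibitor, with adjusted p of 0.297 to 0.969 in limma, where 0.0824% of all genes were called for jak1i and 2.3% for jak3i. Each comparison set 3 arrays against 3, and both inhibitors were compared with the same PBS arrays. A bulk sample of skin cannot tell fewer melanocytes from less RNA per melanocyte.

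Among the enzymes, Tyr averaged 5.89 ± 1.61 in jak1i skin and 6.38 ± 0.88 in PBS skin at 12 weeks (SD, n = 3 each), a difference of -0.49 (95% interval -3.16 to 2.17, adjusted p = 0.847 in limma). In jak3i skin at 12 weeks it was 4.91 ± 0.45, which lay below all 3 PBS arrays, with a difference of -1.47 (95% interval -4.14 to 1.20, adjusted p = 0.447 in limma). With PBS at 6 weeks as the control the differences at 12 weeks were -0.76 for jak1i (adjusted p = 0.806 in limma) and -1.74 for jak3i (adjusted p = 0.422 in limma). Tyrp1 differed from PBS at 12 weeks by -0.13 in jak1i and -1.06 in jak3i, and Dct by 0.30 in jak1i and -0.31 in jak3i. With PBS at 6 weeks as the control these differences were 0.42 in jak1i and -0.51 in jak3i for Tyrp1, and 0.46 and -0.16 for Dct. The intervals of these 3 genes hold differences of more than 1 log2 unit in at least 1 direction.

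For the structural and transport proteins the picture was the same. Pmel differed from PBS at 12 weeks by -0.44 (SE 0.93) in jak1i and -1.07 (SE 0.93) in jak3i, and Mlana by -0.99 (SE 1.25) and -1.04 (SE 1.25). Oca2 had 4.93, 4.85 and 4.81 in jak3i skin at 12 weeks, against 4.99, 5.58 and 6.36 in PBS skin. These arrays did not overlap, and the difference was -0.78 (95% interval -1.91 to 0.36, adjusted p = 0.333 in limma). Slc45a2 differed by -0.28 (SE 0.59) in jak1i and -0.46 (SE 0.59) in jak3i. With PBS at 6 weeks as the control the 12-week differences in jak1i and jak3i were -0.10 and -0.73 for Pmel, -1.36 and -1.41 for Mlana, -0.30 and -0.70 for Oca2, and -0.71 and -0.89 for Slc45a2. Groups did not overlap for 1 of the 10 genes in jak1i and 3 in jak3i at 12 weeks, against 36.2% and 38.3% of all genes, and for 0 and 2 at 6 weeks, against 18.5% and 15.6%.

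The regulators lay higher in inhibitor skin in all 4 comparisons with PBS, without a call. Sox10 had 7.14, 7.28 and 6.83 in jak3i skin at 12 weeks, against 6.65, 6.76 and 6.47 in PBS skin. The jak3i arrays lay above all PBS arrays, with a difference of 0.46 (95% interval 0.08 to 0.83, adjusted p = 0.0848 in limma). With PBS at 6 weeks as the control this difference was 0.31 (adjusted p = 0.297 in limma). Kit had 8.63, 8.95 and 8.98 in jak3i skin at 6 weeks, against 8.43, 7.51 and 8.33 in PBS skin. These arrays did not overlap either, with a difference of 0.77 (95% interval -0.06 to 1.59, adjusted p = 0.34 in limma). Mitf differed from PBS at 6 weeks by 0.35 (SE 0.21) in jak1i and 0.44 (SE 0.21) in jak3i, and at 12 weeks by 0.31 and 0.09. The mean of 13 mast cell genes was 6.11 to 8.02 in jak3i skin at 6 weeks, against 5.41 to 7.45 in PBS skin, so that the groups overlapped. Of the 13 genes 11 had a difference above 0, with 0 called in limma and 5 at an unadjusted p under 0.05, against 1.94% and 16.9% of all genes. The mean of 12 Schwann cell genes was 8.21 to 8.98 in jak3i skin at 12 weeks, against 7.93 to 8.19 in PBS skin, and these groups did not overlap. Of the 12 genes 3 rose and 1 fell, where 17.3% of all genes were called. The part of mast cells and Schwann cells in the levels of Kit and Sox10 was not tested by these comparisons.

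**Figure D2:**
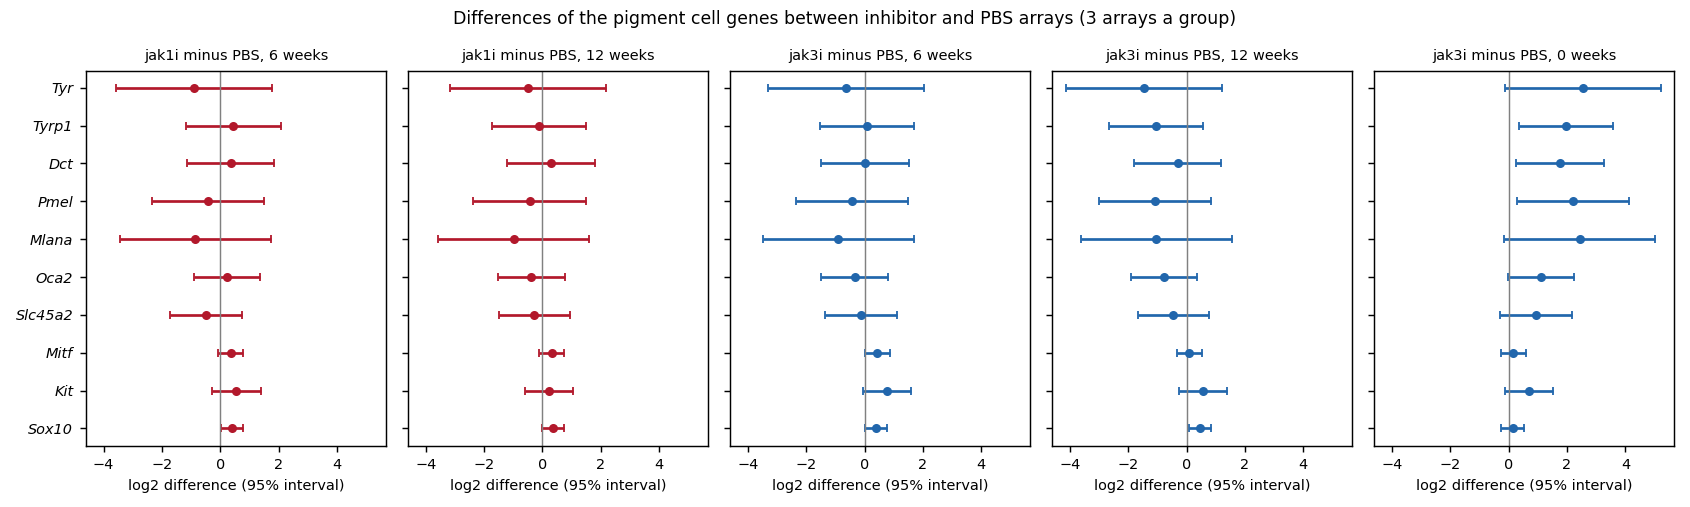
Log2 difference of each gene between inhibitor and PBS arrays (horizontal axes), with its 95% interval, for jak1i and jak3i at 6 and 12 weeks and for jak3i at 0 weeks, with 3 arrays in each group. The intervals of Tyr and Mlana are the widest (for Tyr in jak1i at 12 weeks -3.16 to 2.17), and in the last panel the pigment genes lie to the right of 0 before treatment (Tyr 2.55).

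The group means were not level at the start, but no gene was called. At 0 weeks all 10 genes lay higher in jak3i than in PBS skin, by a median of 1.43 against 0.01 over all genes, and 5 of the 10 had groups that did not overlap, against 15.3% of all genes. The pigment genes vary together over arrays, so these counts are not independent. Tyr had 9.31, 5.23 and 7.72 in jak3i skin, against 4.83, 4.75 and 5.04 in PBS skin. All 3 jak3i arrays were above all 3 PBS arrays, with a difference of 2.55 (95% interval -0.12 to 5.21, adjusted p = 0.684 in limma). Pmel differed by 2.20 (95% interval 0.27 to 4.12) and Tyrp1 by 1.97 (95% interval 0.35 to 3.58), with adjusted p = 0.636 and 0.602 in limma. For jak1i against PBS at 0 weeks the 10 genes had a median difference of 0.79, with Tyr at 1.68 (95% interval -0.99 to 4.35). In these baseline comparisons 0 of the 10 genes were called and 0% of all genes were, with 3 and 0 of the 10 at an unadjusted p under 0.05 for jak3i and jak1i, against 7.57% and 5.04% of all genes.

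Within the arms the direction over time differed, and no gene was called. In the jak3i arm the 10 genes had a median difference from 0 weeks of -0.94 at 6 weeks, -1.25 at 12 weeks and -1.49 at 24 weeks, against 0.01, 0 and 0.05 over all genes. The calls were 0 of 10 at each time, where 3.15%, 10.3% and 0.11% of all genes were called, and 1, 2 and 3 of the 10 had an unadjusted p under 0.05, against 22.2%, 32.2% and 17.2% of all genes. Tyr at 12 weeks differed from 0 weeks by -2.51 (95% interval -5.18 to 0.16, adjusted p = 0.18 in limma), and all 12-week arrays lay below all 0-week arrays. Oca2 at 12 weeks differed by -1.46 (95% interval -2.59 to -0.32, adjusted p = 0.0785 in limma). It was called with each array centred on its median (-1.62, adjusted p = 0.0444 in limma). At 24 weeks, with 2 arrays, Tyrp1 differed by -2.29 (95% interval -4.10 to -0.49) and Pmel by -2.55 (95% interval -4.70 to -0.40), with adjusted p = 0.2 and 0.224 in limma.

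In the jak1i arm the median of the 10 genes was 0.15 at 6 weeks, 0.07 at 12 weeks and -0.07 at 24 weeks relative to 0 weeks. The calls were 0 of 10 at each time, where 12.4%, 16.3% and 1.19% of all genes were called, with 2, 0 and 0 at an unadjusted p under 0.05, against 27.2%, 32.7% and 20.4% of all genes. Kit had 8.18, 8.50 and 9.24 in jak1i skin at 6 weeks, against 7.45, 7.09 and 8.53 at 0 weeks. The arrays overlapped, with a difference of 0.95 (95% interval 0.12 to 1.78, adjusted p = 0.122 in limma). Without jak1i at 0 weeks replicate 3, an array with high pigment genes, this difference was 1.37 and was called (adjusted p = 0.0415 in limma). The mast cell mean was 6.27 to 8.46 in jak1i skin at 6 weeks, against 5.43 to 5.79 at 0 weeks, and 7 of the 13 mast cell genes rose, where 12.4% of all genes were called.

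In the PBS arm the 10 genes had a median difference from 0 weeks of 0.77 at 6 weeks, with 9 of the 10 above 0, and of 0.92 at 12 weeks. The calls were 0 of 10 at both times, where 0.0055% and 2.28% of all genes were called, and 0 of the 10 had an unadjusted p under 0.05, against 9.82% and 16.3% of all genes. Groups did not overlap for 6 and 5 of the 10 genes, against 17.1% and 23.9% of all genes. Mlana had 7.25, 7.54 and 9.79 in PBS skin at 6 weeks, against 6.25 ± 0.07 (SD, n = 3) at 0 weeks. All 6-week arrays were higher, with a difference of 1.95 (95% interval -0.63 to 4.53, adjusted p = 0.645 in limma).

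The change from 0 to 12 weeks was also compared between arms directly. For jak1i minus PBS 0 of the 10 genes were called, where 6.85% of all genes were, and for jak3i minus PBS 0 were called, where 4.55% were. In the jak3i comparison 4 of the 10 had an unadjusted p under 0.05, against 24.6% of all genes, among them Tyrp1 at -3.02 (95% interval -5.31 to -0.74, adjusted p = 0.0989 in limma) and Pmel at -3.27 (95% interval -5.99 to -0.55, adjusted p = 0.13 in limma). With the PBS change taken at 6 weeks in place of 12, 0 of the 10 were called in either comparison, where 0% of all genes were, and in jak3i 6 of the 10 had an unadjusted p under 0.05, against 16.6% of all genes. Tyrp1 was then at -2.48 (adjusted p = 0.269 in limma) and Pmel at -2.93 (adjusted p = 0.272 in limma). These differences hold the baseline difference between the jak3i and PBS arms, which was itself not called. Jak1i set against jak3i had 0 of the 10 genes called at 6, 12 and 24 weeks, where 0% of all genes were called each time, and 0 at an unadjusted p under 0.05, against 2.58%, 5.97% and 0.627% of all genes. Tyr differed between jak1i and jak3i by -0.26 (95% interval -2.93 to 2.41) at 6 weeks, 0.98 (-1.69 to 3.64) at 12 weeks and 1.13 (-2.14 to 4.40) at 24 weeks.

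The spread of the pigment genes within groups went with the hair keratin level of the sample, taken as the mean of 12 hair keratin genes, structural proteins of the hair shaft made in growing follicles. This hair keratin level ran from 5.69 to 12.06. Of the 16 inhibitor arrays after 0 weeks 12 lay between 5.69 and 7.75 and 4 at 8.82 or above, whereas all 9 PBS arrays lay between 8.89 and 10.96 and all 9 arrays at 0 weeks between 8.96 and 11.27. The array with the highest hair keratin level of its group was also the highest for Tyr in 7 of the 11 groups, for Mlana in 9, for Kit in 4 and for Sox10 in 0. In limma, with the 11 group means in the model, 7 of the 10 genes rose with the hair keratin level, where 24.1% of all genes were called, 10.4% upward and 13.7% downward. The median slope of the 10 was 0.32 log2 units per log2 unit, against 0 over all genes. The slope was 0.82 (SE 0.13, adjusted p = 8.0e-05) for Tyr and 0.79 (SE 0.13, adjusted p = 9.9e-05) for Mlana. It was 0.53 (SE 0.11) for Pmel, 0.38 (SE 0.10) for Tyrp1, 0.34 (SE 0.07) for Slc45a2, 0.30 (SE 0.11) for Dct and 0.29 (SE 0.07) for Oca2, with adjusted p of 6.8e-04 to 0.0428. Mitf had 0.07 (SE 0.03, adjusted p = 0.112), Kit -0.03 (SE 0.07, adjusted p = 0.801) and Sox10 -0.07 (SE 0.03, adjusted p = 0.0908), and these 3 were not called.

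The slopes did not all rest on the same support. The slopes of Tyr, Mlana, Pmel, Oca2 and Slc45a2 were called in all 31 fits that left out 1 array, and that of Tyrp1 in 30, since without jak1i at 6 weeks replicate 2 it was 0.27 (adjusted p = 0.0983). That of Dct was called in 16 of 31 (0.24 to 0.36) and was not called without the PBS arrays at 12 weeks (0.29, adjusted p = 0.0527). Without these PBS arrays 6 of the 10 genes were called, where 23.3% of all genes were. Within the jak1i arm alone 3 of the 10 were called, where 2.94% of all genes were. Within jak3i 1 was called, where 7.76% were, and within PBS 0, where 0.379% were, with Tyr at 0.67 (adjusted p = 0.0558) in jak3i and 0.91 (adjusted p = 0.382) in PBS. The slopes of the 7 pigment genes were above 0 in each arm.

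**Figure D3:**
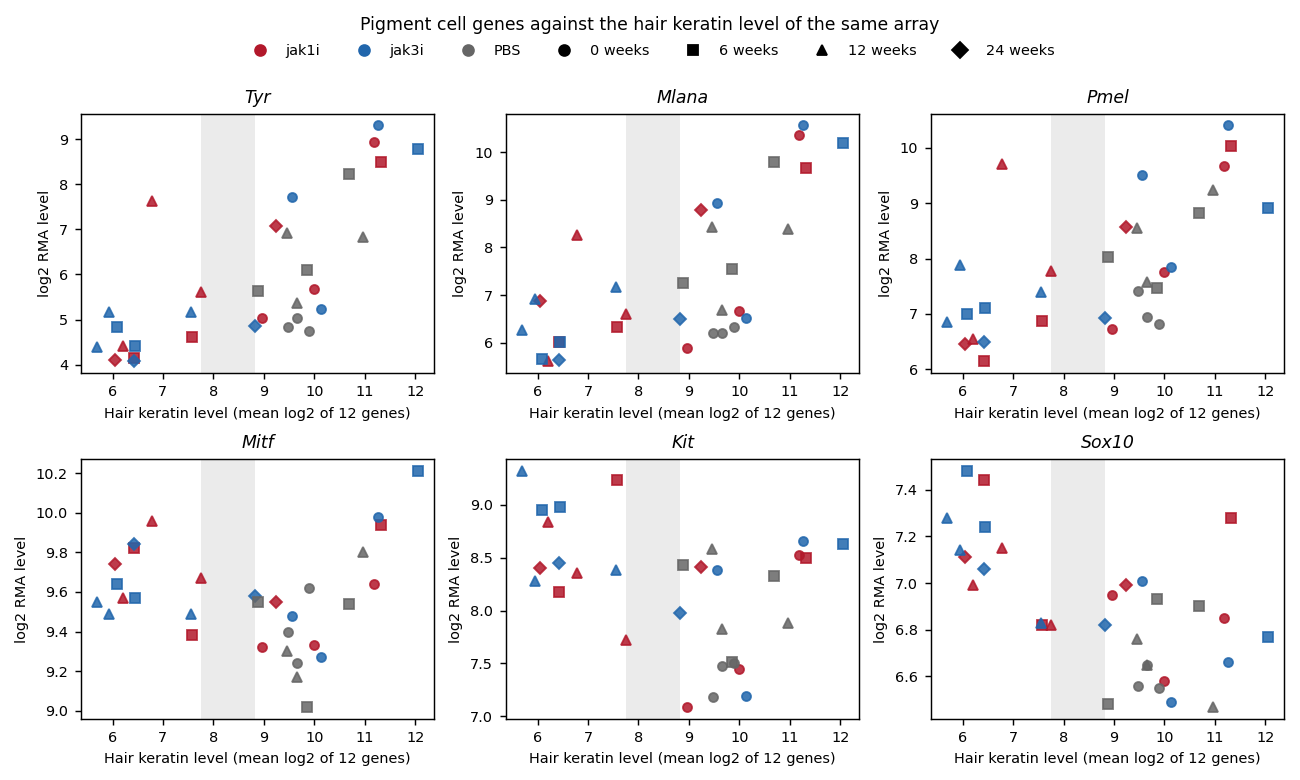
Log2 level of 6 of the genes (vertical axes) against the hair keratin level of the same array (horizontal axes), by arm (colour) and time (symbol); the grey band marks the widest gap in the hair keratin level, 7.75 to 8.82. Tyr, Mlana and Pmel climb on the arrays right of the band. There the 3 PBS arrays at 0 weeks lie low (Tyr 4.75 to 5.04), beside low arrays of other groups. Left of the band 1 array, jak1i at 12 weeks replicate 3, lies high (Tyr 7.62).

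The arrays were cut at the widest gap in the hair keratin level (1.06), which left 12 at 7.75 or below and 19 at 8.82 or above. The relation was then taken within each set. Such a cut can always be made, so it does not show that the arrays fall into separate kinds. Among the 19 arrays Tyr correlated with the hair keratin level at Pearson r = 0.76 (p = 2.9e-04) and Spearman rho = 0.61 (p = 0.00637), both by 100000 two-sided permutations, and r was 0.69 without the 2 arrays farthest from the median. Mlana had r = 0.74 (p = 3.4e-04 by permutation), Slc45a2 0.75 (p = 3.1e-04) and Mitf 0.70 (p = 0.00101). Mitf had r = 0.48 without the 2 farthest arrays, jak3i at 6 weeks replicate 1 and jak1i at 6 weeks replicate 2. Kit had r = 0.42 (p = 0.0696 by permutation) and Sox10 0.11 (p = 0.664). In limma over the 19 arrays 8 of the 10 genes were called, all upward, where 7.65% of all genes were called, with Tyr at a slope of 1.29 (SE 0.25, adjusted p = 0.00232) and Mitf at 0.22 (SE 0.05, adjusted p = 0.014). The 19 arrays are all arrays of 0 weeks and of PBS with 4 others, and this fit holds no term for the groups. Without PBS at 12 weeks, over 16 arrays, r was 0.79 for Tyr, 0.76 for Mlana, 0.79 for Slc45a2 and 0.68 for Mitf, and 8 of the 10 genes were again called upward in limma, where 8.78% of all genes were called.

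Among the 12 arrays of low hair keratin level 0 of the 10 genes were called in limma, where 0.253% of all genes were, and 1 had an unadjusted p under 0.05, against 5.63% of all genes. That gene was Sox10, with a slope of -0.24 (SE 0.07, adjusted p = 0.575) and r = -0.74 (p = 0.00623 by permutation). Its rho was -0.62 (p = 0.0373 by permutation) and r was -0.55 without the 2 arrays farthest from the median. Tyr had r = 0.34 (p = 0.288 by permutation). On these arrays the medians of Tyr (4.52), Oca2 (4.94) and Slc45a2 (5.91) lay under 6.177, the median of all values. Those of the other pigment genes lay above it. Low levels limit the relation that could be seen for Tyr, Oca2 and Slc45a2. The hair keratin level itself ran only from 5.69 to 7.75 on these arrays, with its low end under the same median. This can limit the relation for all 10 genes. In all 20 relations were computed in this family, and the limma values adjust over all genes tested.

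Several arrays departed from the relation. Jak1i at 12 weeks replicate 3 had a hair keratin level of only 6.78 but Tyr at 7.62, Dct at 10.53 and Pmel at 9.71. The other 11 arrays of low hair keratin level had Tyr between 4.08 and 5.62, Dct between 8.27 and 9.42 and Pmel between 6.15 and 7.88. On this array the mean of 7 hair matrix genes, regulators of the dividing cells of the hair bulb, was 8.23 and that of 8 inner root sheath genes 9.67, the highest of the 12 arrays in both. The opposite was seen in PBS skin at 0 weeks, and on single arrays of other groups. There the hair keratin level was 9.47, 9.89 and 9.65 and the hair matrix mean 8.21 ± 0.23 (SD, n = 3), while Mlana was 6.25 ± 0.07 (SD, n = 3) and Slc45a2 5.99, 6.00 and 6.01. Jak3i at 0 weeks replicate 3, with a hair keratin level of 9.56, had Mlana at 8.93 and Slc45a2 at 6.71. Replicate 2 of that group, at 10.14, had Mlana at only 6.53 and Slc45a2 at 5.79. Jak1i at 0 weeks replicate 1 (9.99) had 6.67 and 6.06, and PBS at 12 weeks replicate 1 (9.65) had 6.69 and 6.08. PBS at 12 weeks replicate 2 (9.45) had 8.42 and 6.52, and PBS at 6 weeks replicate 2 (9.85) had 7.54 and 6.71. Low pigment genes at such a level were not particular to PBS at 0 weeks.

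With the hair keratin level as a covariate the comparisons between groups again gave 0 calls among the 10 genes. For jak1i at 12 weeks against 0 weeks, where 3.86% of all genes were called, Tyr lay at 1.89 (SE 0.88, unadjusted p = 0.0431, adjusted p = 0.213 in limma), and 5 of the 10 genes had an unadjusted p under 0.05, against 21.9% of all genes. Against PBS at 12 weeks, where 2.61% were called, Tyr lay at 2.05 (SE 0.88, adjusted p = 0.211 in limma) in jak1i skin. Against PBS at 6 weeks, where 0% were called, it lay at 1.60 (SE 0.87, adjusted p = 0.65 in limma). For jak3i at 12 weeks against 0 weeks, where 0% of all genes were called, Tyr lay at 0.70 (SE 0.93, adjusted p = 0.827 in limma), against -2.51 without the covariate. The hair keratin level was 5.69 to 7.56 in jak3i skin at 12 weeks, against 9.56 to 11.27 at 0 weeks. In jak1i skin it was 6.21 to 7.75 at 12 weeks, against 8.96 to 11.19 at 0 weeks and 8.89 to 10.96 on the PBS arrays. These ranges did not overlap, so each of these fits carried 1 common slope across a gap. They cannot tell a group difference from a departure from that slope. For jak3i against PBS at 0 weeks, where 0% were called, Tyr stayed at 2.01 (SE 0.79, adjusted p = 0.45 in limma) and Pmel at 1.85 (SE 0.66, adjusted p = 0.408 in limma).

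The level of cytotoxic lymphocyte genes was set beside the hair keratin level. The mean of 8 such genes was 5.27 to 8.27 on the inhibitor arrays after 0 weeks, against 7.92 to 9.26 on the PBS arrays and 7.71 to 9.11 on all arrays at 0 weeks. It ran from 5.27 to 6.60 (median 5.72) on the 12 arrays of low hair keratin level and from 5.51 to 9.26 (median 8.47) on the other 19, so that these ranges overlapped. The 2 arrays of highest hair keratin level, jak3i at 6 weeks replicate 1 (12.06) and jak1i at 6 weeks replicate 2 (11.32), had cytotoxic means of 5.51 and 5.91 beside Tyr at 8.78 and 8.49. The next 2, jak3i at 0 weeks replicate 1 and jak1i at 0 weeks replicate 3, had cytotoxic means of 8.42 and 8.67 beside Tyr at 9.31 and 8.94. On these arrays, picked for their hair keratin level, Tyr was high at low and at high cytotoxic means. On the 12 arrays of low hair keratin level, all with low cytotoxic means, Tyr was 4.08 to 5.62 except on jak1i at 12 weeks replicate 3 (7.62). With the cytotoxic mean added to the model 8 of the 10 genes were called with the hair keratin level, where 20.1% of all genes were, the eighth being Mitf (0.10, adjusted p = 0.04 in limma). The part of the cytotoxic genes in the pigment gene levels was not tested further.

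Kit and Sox10 were set against the other cell types that carry them, in fits added after their values had been seen. Kit rose with the mean of the 13 mast cell genes within groups, with a slope of 0.39 (SE 0.13, adjusted p = 0.0499 in limma), where 14.3% of all genes were called. The call held in only 5 of 31 fits that left out 1 array, with slopes of 0.35 to 0.46, and was lost without the PBS arrays at 12 weeks (0.37, adjusted p = 0.102). The 7 pigment genes had slopes below 0 on the mast cell mean, from -1.02 for Tyr to -0.29 for Dct, with no call. Mast cell genes were present on all arrays, with Cpa3 at 7.10 to 12.46 and Cma1 at 6.42 to 11.24. Sox10 had a slope of 0.70 (SE 0.18, adjusted p = 0.0619 in limma) on the mean of the 12 Schwann cell genes, where 0.121% of all genes were called, and it was called in 4 of 31 fits that left out 1 array. Over all 31 arrays with no group term, where 47% of all genes were called with the hair keratin level, 6 of the 10 genes were called upward, all but Dct among the pigment genes, and Sox10 was called downward (-0.09, adjusted p = 6.0e-04 in limma).

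Probe sets of the same gene did not always tell the same story. The other probe sets of Tyr and Tyrp1 correlated with the chosen ones at 0.95 or more over the 31 arrays, and the second of Slc45a2 at 0.89. The second probe set of Kit correlated at 0.63 and that of Mitf at 0.11, and those of Sox10 at 0.15 and 0.10. Averaged over all its probe sets, the slope of Sox10 on the hair keratin level was -0.02 (adjusted p = 0.495 in limma), and likewise that of Mitf was 0.06 (adjusted p = 0.0566 in limma). The values of Mitf and Sox10 above therefore belong to their chosen probe sets.

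Of 26 measured genes of melanosome biogenesis and transport 7 rose with the hair keratin level within groups and 2 fell, against 10.4% of all genes upward and 13.7% downward, and the median slope was 0, as over all genes. Trpm1, a cation channel of melanocytes, had 0.42 (SE 0.08, adjusted p = 3.5e-04) and Gpr143, a receptor on the melanosome membrane, had 0.30 (SE 0.06, adjusted p = 0.00117). Slc7a11, the cystine transporter that favours yellow pheomelanin, had 0.51 (SE 0.07), Gpnmb 0.18 (SE 0.06) and Myo5a, the motor that carries melanosomes, 0.13 (SE 0.02). The copper pump gene Atp7a, which supplies tyrosinase, had 0.10 (SE 0.01) and Tspan10 0.07 (SE 0.02). The genes that fell were Hps6, a subunit of a complex that sorts melanosome cargo, at -0.05 (SE 0.02) and Mfsd12, a melanosomal cysteine importer, at -0.10 (SE 0.03), all by limma.

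Of 12 measured signal and lineage genes 4 rose with the hair keratin level and 0 fell, where 24.1% of all genes were called. They were Corin at 0.51 (SE 0.08, adjusted p = 1.1e-04), a protease of the dermal papilla that limits agouti signalling, Mc1r at 0.33 (SE 0.07, adjusted p = 0.00201), the melanocortin receptor, Ednrb at 0.29 (SE 0.07, adjusted p = 0.0024), the endothelin receptor of melanocytes, and its ligand gene Edn1 at 0.24 (SE 0.08, adjusted p = 0.0297), all in limma. The median slope of the 12 was -0.02.

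**Figure D4:**
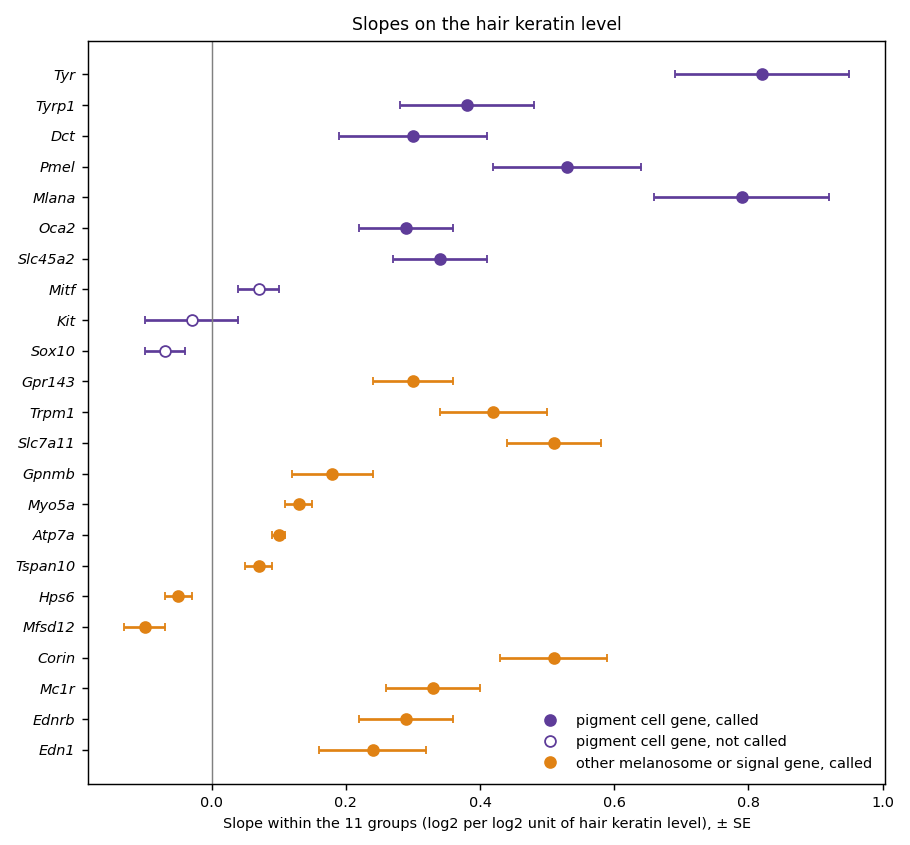
Slope of each gene on the hair keratin level within the 11 groups (horizontal axis, log2 per log2 unit, with standard errors), for the 10 pigment cell genes and for the other melanosome and signal genes that were called; open symbols were not called. Tyr (0.82) and Mlana (0.79) stand farthest to the right, and Kit (-0.03) and Sox10 (-0.07) lie left of 0.

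In the comparisons between groups a few of these pathway genes were called, and most of them are used widely outside melanocytes. Rab32, a small GTPase that directs cargo to melanosomes, was lower in jak1i than in PBS skin at 12 weeks by 0.67 log2 units (difference -0.67, SE 0.15, adjusted p = 0.00835 in limma). In jak3i skin it differed from PBS by -0.63 at 6 weeks and -0.52 at 12 weeks, both called. The related Rab38 differed by -0.59 (adjusted p = 0.0201), Atp7a by -0.61 (adjusted p = 0.0137) and Ostm1 by -0.39 (adjusted p = 0.0425) in jak3i against PBS at 12 weeks in limma, and Ostm1 by -0.56 in jak1i (adjusted p = 0.00897). Edn1 had a difference of -1.75 (SE 0.56, adjusted p = 0.0407) in jak1i and -2.12 (SE 0.56, adjusted p = 0.0152) in jak3i at 12 weeks in limma. In counts, 2 of 26 melanosome genes fell in jak1i and 4 in jak3i at 12 weeks, 1 of 12 signal genes fell in each, and 0 rose. Over all genes 6.51% fell in jak1i and 7.28% in jak3i (13.4% and 17.3% called in all), so these few calls do not set the lists apart. None of these calls at 12 weeks held in limma with PBS at 6 weeks as the control, where 0.0824% (jak1i) and 2.3% (jak3i) of all genes were called. There Rab32 differed by -0.51 in jak1i (adjusted p = 0.122) and -0.36 in jak3i (adjusted p = 0.156), Edn1 by -1.23 (adjusted p = 0.26) and -1.59 (adjusted p = 0.0939), and Ostm1 by -0.15 (adjusted p = 0.577) and 0.02 (adjusted p = 0.955). Rab38 differed by -0.32 (adjusted p = 0.236) and Atp7a by -0.39 (adjusted p = 0.133) in jak3i. Against PBS at 12 weeks with the hair keratin covariate, Rab38 in jak3i (-0.76, adjusted p = 0.0472) and Ostm1 in jak1i (-0.56, adjusted p = 0.0449) stayed called in limma. The others of these 12-week calls did not, as Edn1 (-1.25, adjusted p = 0.265) and Atp7a (-0.23, adjusted p = 0.259) in jak3i show. In the change from 0 to 12 weeks relative to PBS, Rab32 (-0.73, adjusted p = 0.0463) and Ostm1 (-0.70, adjusted p = 0.0271) were called in jak1i and Atp7a (-0.76, adjusted p = 0.0497) in jak3i by limma. With the PBS change taken at 6 weeks they were at -0.57 (adjusted p = 0.221), -0.30 (adjusted p = 0.428) and -0.55 (adjusted p = 0.235) in limma.

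Over time Kitl, the ligand of Kit, rose in the jak1i arm. It averaged 10.38 at 6 weeks and 8.94 at 0 weeks, and the arrays did not overlap, with a difference of 1.43 (SE 0.35, adjusted p = 0.0135 in limma). At 6 weeks 0 of the 12 signal genes, Kitl among them, were called between jak1i and PBS skin or between jak1i and jak3i skin. With the hair keratin covariate Kitl differed by 0.88 from PBS (adjusted p = 0.236) and by -0.16 from jak3i (adjusted p = 0.999) in limma. The rise was therefore not shown to be particular to jak1i. Hps5 rose by 0.57 at 6 weeks, 0.65 at 12 weeks and 0.68 at 24 weeks of jak1i, and Hps4 by 0.35 at 12 weeks. Both encode subunits of complexes that build lysosome-related organelles, melanosomes among them. Slc7a11 fell by 12 weeks of jak1i to 4.03, against 6.70 at 0 weeks (difference -2.67, SE 0.76, adjusted p = 0.0217 in limma), and Rab32, Dtnbp1 and Ostm1 had called differences of -0.57, -0.41 and -0.41. Ostm1 also differed by -0.41 at 6 weeks (adjusted p = 0.0417 in limma). With the hair keratin covariate, where 3.86% of all genes were called, Slc7a11 at 12 weeks of jak1i was at -1.07 (adjusted p = 0.184 in limma). Rab32 was at -0.49 (adjusted p = 0.0988) and Ostm1 at -0.41 (adjusted p = 0.107), and Dtnbp1 stayed called (-0.50, adjusted p = 0.0419) in limma. This fit carries the common slope across a gap, as stated above. In the jak3i arm Rab32 fell at 6 weeks (-0.70, adjusted p = 0.0174 in limma) and Edn3, an endothelin that acts on melanocytes, at 12 weeks (-0.71, adjusted p = 0.0345 in limma). In the PBS arm 0 of the 26 and 0 of the 12 genes were called at either time in limma, with 1 and 1 at 6 weeks and 3 and 2 at 12 weeks at an unadjusted p under 0.05, against 9.82% and 16.3% of all genes. In counts, 1 of the 26 melanosome genes rose and 1 fell at 6 weeks of jak1i, 2 rose and 4 fell at 12 weeks and 1 rose at 24 weeks, where 12.4%, 16.3% and 1.19% of all genes were called.

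The 10 genes outside the group whose values over the 31 arrays were most like the mean of the 7 pigment genes were Trpm1 (Pearson r = 0.963), Syt4 (0.934), Slc39a10 (0.927), Lef1 (0.927), Gpr143 (0.914), Mc1r (0.904), Msx1 (0.897), Mtcl1 (0.878), Cux1 (0.877) and Cldn10 (0.874). These are descriptions over arrays that share their normalisation. Lef1 and Msx1, transcription factors of the hair matrix, belong to the hair matrix list, and Trpm1, Gpr143 and Mc1r to the pigment lists. Lef1 ranged from 6.72 to 9.94 and Trpm1 from 4.49 to 7.55. With the mean of the hair matrix list in place of the hair keratins, a measure added later, the slope was 0.90 for Dct (adjusted p = 0.0017) and 0.22 for Mitf (adjusted p = 0.011) in limma, and 8 of the 10 genes were called, where 22.3% of all genes were. Lef1 and Msx1 are in this measure.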

How the data were processed

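Total RNA of skin was labelled with biotin and hybridised to Affymetrix arrays, per the labels' protocols. RMA is named in the submitters' processing notes, and the authors deposited 1 table of log2 values (range 2.59 to 14.69, array medians 6.05 to 6.24). Its version was not found in the labels. Scan batches were not tested. The number of arrays limits the precision.

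Of 45101 probe sets, 34945 named a single gene, 932 several and 9160 none, and 64 were controls. The probe set of highest mean stood for each of 18193 genes. A single model of 11 group means was fitted with limma 3.58.1 in R 4.3.3 (20 residual and 2.5 prior degrees of freedom), and 19 contrasts were tested with Benjamini-Hochberg adjustment over all genes. Slopes on a list mean used the same model with that mean as a covariate. Errors with slopes and differences are standard errors, and those with means are SD. The fits were tested on simulated data. Correlations and motif searches used Python 3 with SciPy. Promoter windows (250 bases before and 50 after each start) are those of RefSeq, GRCm38.p6. The members, the gene lists and the tests were chosen with earlier results of these data known. The text names the 10 members, the called genes of the melanosome and signal lists, and the 10 genes most like the mean of the 7 pigment genes, unnamed gene models left out. Same-numbered replicates were checked for pairing, and deviations correlated over 0.1 in 11 of 39 pairs (-0.61 to 0.49, median -0.05). No general pairing by number was seen. The check cannot exclude that a mouse was sampled more than once, because these deviations also carry the hair keratin differences between arrays.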

Additional observations from a re-analysis of the deposited data

Results flagged for a closer look

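The change of Tyr from 0 to 12 weeks ran in opposite directions in 2 arms. In jak3i skin every 12-week array lay below every 0-week array, with a difference of -2.51 (SE 1.29), whereas in PBS skin every 12-week array lay above every 0-week array, with a difference of 1.50 (SE 1.29). The difference between these changes, jak3i minus PBS, was -4.02 (95% interval -7.79 to -0.24, unadjusted p = 0.038, adjusted p = 0.177 in limma over all genes), so it did not pass the threshold. In a fit to these arrays alone it did (adjusted p = 0.0497 in limma). With the PBS change taken at 6 weeks the difference was -4.28 (adjusted p = 0.254 in limma). At 0 weeks the mean of Tyr was 2.55 higher in jak3i than in PBS skin, also without a call, and the 3 PBS arrays at 12 weeks are those with low muscle genes.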

How the results depend on the processing

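Other settings were array centring, dim genes left out (12825 genes kept), probe set means, a trended robust variance, only the arrays of each comparison, a block for the replicate number, a random block of arm and number, the hair keratin covariate and PBS at 6 weeks as the 12-week control. Over these, the count of called members was 0 in 154 of 156 results. The exceptions were 1 for jak3i at 12 against 0 weeks after centring (Oca2) and 2 for the jak3i minus PBS change in the compared arrays alone (Tyr -4.02 and Pmel -3.27). With 1 array left out it was 0 in 120 of 122, and it ranged from 0 to 1 for jak1i at 6 against 0 weeks (Kit, without jak1i at 0 weeks replicate 3) and for jak3i at 6 against 0 weeks (Sox10 0.64, without jak3i at 6 weeks replicate 1). The slope on the hair keratin level was called for 6 to 8 members with 1 array left out, and for 3, 1 and 0 in the jak1i, jak3i and PBS arms alone. The replicate block gave 0 members in each contrast and 6 for the slope (Dct 0.29, adjusted p = 0.0627 in limma), and it changed no other member's call. Causes of these shifts were not tested beyond the fewer arrays in each fit. The hair matrix, mast cell, Schwann cell and cytotoxic measures, the fits without PBS at 12 weeks, and PBS at 6 weeks for the changes, the covariate fit and the pathway genes, were chosen after seeing the data. Groups of 2 or 3 arrays with a within-group SD of up to 1.67 limit what could be detected.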
